A study of Mus musculus with 6 samples.

Results

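The 7 genes followed here write, maintain or remove cytosine methylation in differentiating mouse myoblasts: Dnmt1, Dnmt3a, Dnmt3b, Uhrf1, Tet1, Tet2 and Tet3. They were picked by gene symbol, and each of the 7 symbols was found once among the 55804 genes counted and passed the filter that left 14651 genes for testing. The RNA came from C2C12, an established myoblast line from mouse that leaves the cell cycle and forms multinucleate myotubes in low serum. The Prr33-gRNA group carried a CRISPR/Cas9 guide RNA against Prr33 and is labelled a knockdown, and the Ctrl-gRNA group carried a control guide and is labelled WT. Both groups had grown in 20% fetal bovine serum and were collected on day 3 in medium with 2% horse serum, and each had 3 libraries. The labels name no separate cultures and no second line per guide, so p-values cover only the spread among these libraries, which may be technical, and the guide and the line that carries it cannot be told apart. RNA levels were measured here, not methylation.

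Methylation of cytosine in CpG dinucleotides is copied after replication by DNMT1, which UHRF1 brings to DNA that carries the mark on the old strand alone. DNMT3A and DNMT3B set the mark on DNA that lacks it. The TET dioxygenases oxidise the methyl group, and the products are lost by dilution through replication or are cut out by base excision repair. In muscle, demethylation of the regulatory DNA of muscle genes accompanies differentiation, while DNMT1 and UHRF1 are known for high levels in dividing cells.

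Total counts ran from 17412383 to 19471762 in the Prr33-gRNA libraries and from 17006381 to 19118010 in the Ctrl-gRNA libraries. Prr33 itself had 793, 829 and 848 counts in Prr33-gRNA libraries, against 1137, 990 and 913 in Ctrl-gRNA libraries (log2 fold change -0.42, SE 0.06; edgeR adjusted p = 1.37e-06). Of 18 genes listed for muscle differentiation, 17 were tested. Of these, 12 fell and 4 rose, beside 26.6% lower and 25.5% higher over all tested genes. The summed level of the 18 was 16837 to 17759 CPM (counts scaled to a common library size by TMM) in Prr33-gRNA and 29179 to 29690 CPM in Ctrl-gRNA. Myog, which drives terminal differentiation, averaged 383 ± 22.9 CPM in Prr33-gRNA and 1184 ± 86.1 CPM in Ctrl-gRNA (SD, n = 3 each), so the cells expressed the muscle programme at different levels. Myod1, Myh3 and the cell cycle inhibitor gene Cdkn1a had log2 fold changes of -1.59, -1.26 and -0.88. Over the tested genes of the list, log2 fold changes lay between -1.63 and 1.99, so the genes named show only the falling side. Of 10 fibroblast markers 8 were tested, 7 fell and 1 rose, with Lum at 0 counts in all libraries and a summed level of 886 to 951 CPM in Prr33-gRNA and 1826 to 1960 CPM in Ctrl-gRNA. Adipocyte markers summed to 5.65 to 5.70 CPM in Prr33-gRNA and 8.0 to 8.70 CPM in Ctrl-gRNA, with Adipoq and Plin1 among 4 of 8 at 0. Endothelial and haematopoietic markers summed to 2.20 to 3.15 CPM in Prr33-gRNA and 3.51 to 5.27 CPM in Ctrl-gRNA, with Ptprc and Tie1 among 3 of 10 at 0. Neuronal and epithelial markers summed to 3.58 to 4.55 CPM in Prr33-gRNA and 8.39 to 12.4 CPM in Ctrl-gRNA, with Rbfox3 and Epcam among 5 of 10 at 0. The part of these differences in the results below was not tested, and in bulk RNA fewer cells of a type and less RNA per cell cannot be told apart.

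Of the 7 enzyme genes, the maintenance pair Dnmt1 and Uhrf1 rose in Prr33-gRNA, all 3 TET genes fell, and neither Dnmt3a nor Dnmt3b passed the test. Dnmt1 kept its call in all 16 alternative fits, whereas Uhrf1 lost its call in 7 of them. The threshold was an adjusted p below 0.05 in edgeR's quasi-likelihood test over all genes. Such calls were common across the transcriptome: 25.5% of tested genes were called higher and 26.6% lower, 52.1% in all. A count of 5 called among 7 is therefore close to the background, and 2 higher and 3 lower are too few genes to read a pattern of directions from. Changes of the size seen for Tet2, Tet3 and Uhrf1 were also common. Of all tested genes, 25.8% had a lower log2 fold change than Tet2, 28.3% than Tet3 and 65.8% than Uhrf1. Libraries of the groups did not overlap in CPM for 4 of the 7, against 57.9% of all tested genes.

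**Figure D1:**
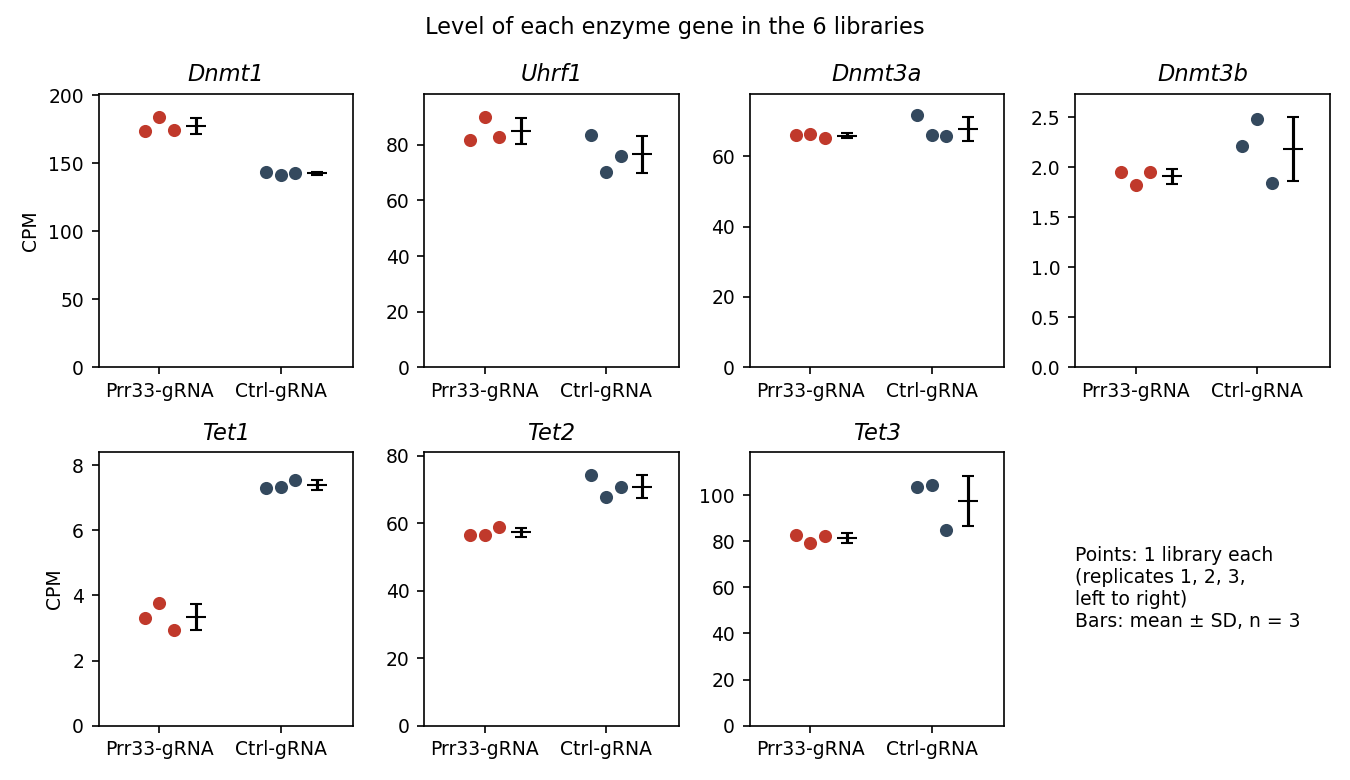
CPM of the 7 enzyme genes, 1 panel a gene, with 1 point a library and the mean ± SD of the 3 libraries beside them. Dnmt1 lies higher in every Prr33-gRNA library than in every Ctrl-gRNA library, and Tet1, Tet2 and Tet3 lie lower, while Uhrf1, Dnmt3a and Dnmt3b overlap between the groups.

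Dnmt1, the maintenance methyltransferase, had 174, 184 and 174 CPM in the Prr33-gRNA libraries, against 144, 141 and 143 CPM in the Ctrl-gRNA libraries. Each Prr33-gRNA library lay above each Ctrl-gRNA library, and the Ctrl-gRNA libraries were close together (SD 1.30 CPM). The means were 177 ± 5.89 CPM in Prr33-gRNA and 143 ± 1.30 CPM in Ctrl-gRNA (SD, n = 3 each), a 1.24-fold rise with a 95% interval of 1.17 to 1.33 (log2 fold change 0.32, SE 0.05; edgeR adjusted p = 5.75e-07). Of all tested genes, 81.2% had a lower log2 fold change than Dnmt1.

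Uhrf1, which encodes the reader of half-methylated DNA that recruits DNMT1, had 81.7, 90.2 and 82.8 CPM in Prr33-gRNA libraries and 83.6, 70.4 and 75.9 CPM in Ctrl-gRNA libraries. The groups overlapped, since Ctrl-gRNA replicate 1 was above Prr33-gRNA replicates 1 and 3. The means were 84.9 ± 4.6 CPM in Prr33-gRNA and 76.6 ± 6.61 CPM in Ctrl-gRNA (SD, n = 3 each), a log2 fold change of 0.15 (SE 0.06; edgeR adjusted p = 0.0405). The call was lost when Prr33-gRNA replicate 2 was left out (log2 fold change 0.10, edgeR adjusted p = 0.183), and likewise for Ctrl-gRNA replicate 2 (0.09, edgeR adjusted p = 0.285) and Ctrl-gRNA replicate 3 (0.14, edgeR adjusted p = 0.0833). It was also lost in DESeq2 (adjusted p = 0.0753), so the rise of Uhrf1 is less firm than that of Dnmt1. The ratio of Dnmt1 to Uhrf1 in FPKM (a level scaled for library size and gene length) was 1.23, 1.18 and 1.21 in Prr33-gRNA, against 0.993, 1.16 and 1.09 in Ctrl-gRNA.

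Dnmt1 lies on the minus strand at chr9:20907209-20959888 and Uhrf1 on the plus strand at chr17:56303321-56323486 (mm10). Their promoters are shown because they alone among the 12 RefSeq windows of the 7 genes (300 bases each, build GRCm38.p6) hold the E2F-type letters TTTCGCGC or TTTGGCGC, searched on both strands. E2F factors are known to switch on replication genes. Either motif stands in 0.813% of all 32851 such windows, in 10 of the 32 windows of S-phase genes, and in none of the windows of Dnmt3a, Dnmt3b, Tet1, Tet2 and Tet3. In the lines that follow, each read 5′ to 3′ on the gene's strand, capitals mark the match; in the first Dnmt1 stretch it is TTTCGCGC on the other strand.
Dnmt1, chr9:20952824-20952853: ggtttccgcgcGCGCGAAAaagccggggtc
Dnmt1, chr9:20952574-20952603: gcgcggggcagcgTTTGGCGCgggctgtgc
Uhrf1, chr17:56304063-56304312: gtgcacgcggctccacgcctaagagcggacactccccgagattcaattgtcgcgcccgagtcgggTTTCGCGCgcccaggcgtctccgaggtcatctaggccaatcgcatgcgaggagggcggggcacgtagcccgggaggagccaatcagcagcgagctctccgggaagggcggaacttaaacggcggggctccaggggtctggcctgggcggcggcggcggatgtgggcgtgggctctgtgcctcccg
Both Dnmt1 stretches lie within an annotated exon. The Dnmt1 matches begin 219 bases before and 33 bases after the RefSeq start of their window, and the Uhrf1 match begins 185 bases before its start. They overlapped no match of the other motifs searched (TTTCCCGC, TTTGCCGC, CACGTG and CANNTG). TTTCCCGC and TTTGCCGC were in no window of the 7 genes, CACGTG was in 1 window of Dnmt3a, and CANNTG, which 72.3% of all windows hold, was in 9 of the 12. These matches describe letters and not bound sites, and counts per gene do not show which start was used. The Dnmt1 window with both matches and the Uhrf1 window with its match hold 33 CpG dinucleotides each, some of them in the matches themselves, against a median of 7 over all windows. The other Dnmt1 windows hold 2 and 12, and the other Uhrf1 window holds 12. The single windows of Tet1, Tet2 and Tet3 hold 17, 57 and 22, the windows of Dnmt3a 46, 47 and 18, and that of Dnmt3b 30.

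Dnmt3a, the main methyltransferase of unmarked DNA outside early development, had 66.0, 66.4 and 65.1 CPM in Prr33-gRNA libraries, against 71.7, 66.1 and 65.7 CPM in Ctrl-gRNA libraries. The groups overlapped, with Ctrl-gRNA replicate 1 above the rest. Its log2 fold change of -0.04 did not pass (SE 0.06, adjusted p = 0.548 in edgeR), and the 95% interval in fold, 0.894 to 1.05, leaves room for a small fall or rise. The sign was positive with libraries scaled by size alone (0.04) and near 0 without Ctrl-gRNA replicate 1 (0.0015). The gene lies at chr12:3806007-3914443 on the plus strand. Its exons share 133 bases with those of the antisense gene Dnmt3aos, which had 2 counts over the 6 libraries.

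Dnmt3b, the methyltransferase best known from early embryos and pluripotent cells, was scarce, with 36, 33 and 39 counts in Prr33-gRNA libraries, against 41, 41 and 31 counts in Ctrl-gRNA libraries. Counting error alone gives 33 counts an exact 95% Poisson interval of 22.7 to 46.3. Its log2 fold change of -0.19 did not pass (SE 0.27, adjusted p = 0.584 in edgeR), and the 95% interval in fold was 0.60 to 1.28, so a moderate change was not detectable at this depth. It lies at chr2:153649450-153687730 on the plus strand. Dnmt3l, which encodes the cofactor of the DNMT3 enzymes without activity of its own, had 0 counts in all 6 libraries. Dnmt3c, a rodent copy of Dnmt3b active in the male germ line, had 0 counts in the Prr33-gRNA libraries and 2 over the Ctrl-gRNA libraries.

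Tet1 had the deepest fall of the 7. It had 61, 68 and 59 counts in Prr33-gRNA libraries, against 135, 121 and 127 counts in Ctrl-gRNA libraries, or 3.31, 3.76 and 2.95 CPM against 7.29, 7.33 and 7.55 CPM. The groups were far apart relative to their spread, with means of 3.34 ± 0.406 CPM in Prr33-gRNA and 7.39 ± 0.142 CPM in Ctrl-gRNA (SD, n = 3 each). The fold was 0.452 with a 95% interval of 0.351 to 0.580 (log2 fold change -1.15, SE 0.18; edgeR adjusted p = 1.55e-06), and 6.68% of tested genes had a lower log2 fold change. On log2(FPKM + 1), where low genes are compressed, the value was -0.28 (limma adjusted p = 0.00353). Tet1, at chr10:62804570-62908996 on the minus strand, is best known from pluripotent cells.

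Tet2, a dioxygenase without a CXXC domain of its own, had 56.6, 56.4 and 58.8 CPM in Prr33-gRNA libraries, against 74.2, 67.6 and 70.8 CPM in Ctrl-gRNA libraries. All Prr33-gRNA libraries lay below all Ctrl-gRNA libraries. The fold was 0.808, with a 95% interval of 0.744 to 0.878 (log2 fold change -0.31, SE 0.06; edgeR adjusted p = 3.79e-05). The gene lies at chr3:133463679-133545139 on the minus strand. Its exons share 43 bases with those of the antisense gene Gm42567, which had 0 counts.

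Tet3, the TET gene also known from the oocyte and from neurons, had 82.7, 79.1 and 82.5 CPM in Prr33-gRNA libraries, against 103, 104 and 84.8 CPM in Ctrl-gRNA libraries. The groups did not overlap, but Ctrl-gRNA replicate 3 lay close to the Prr33-gRNA libraries and set a wide Ctrl-gRNA spread, 97.5 ± 11 CPM against 81.4 ± 2.02 CPM in Prr33-gRNA (SD, n = 3 each). The fold was 0.835, with a 95% interval of 0.763 to 0.913 (log2 fold change -0.26, SE 0.06; edgeR adjusted p = 0.00104). Without Ctrl-gRNA replicate 3 the log2 fold change was -0.35 (edgeR adjusted p = 4.21e-06), and with libraries scaled by size alone it was -0.17 (edgeR adjusted p = 0.0230). The gene lies at chr6:83362373-83459084 on the minus strand.

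**Figure D2:**
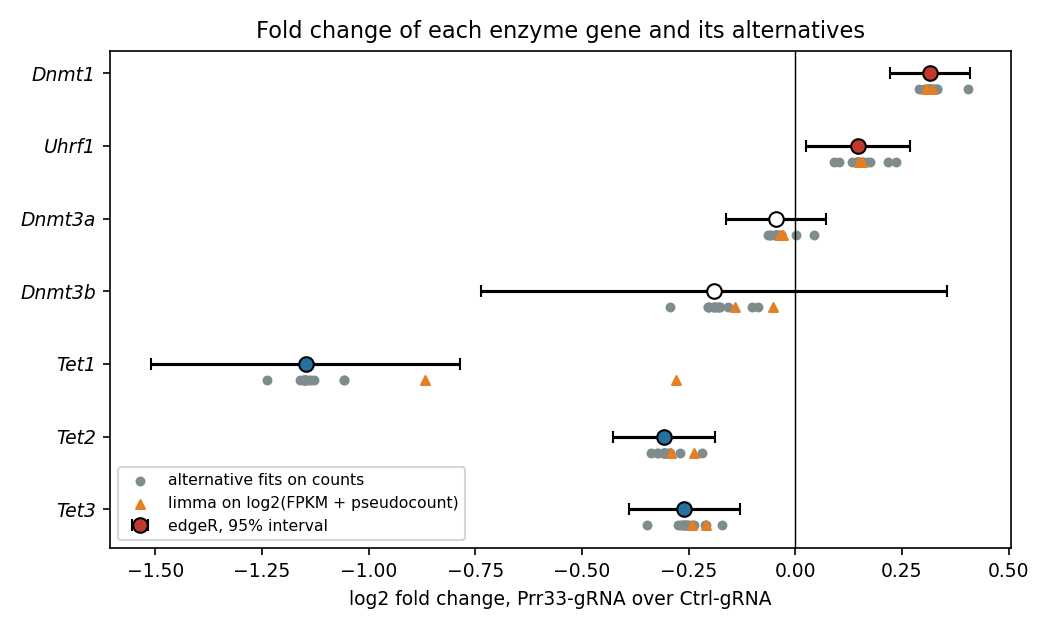
Log2 fold change of each gene, Prr33-gRNA over Ctrl-gRNA, from edgeR with its 95% interval, and below it the values of the 16 other fits. Filled circles passed the test; Tet1 stands apart at -1.15, and its values from FPKM with a pseudocount, drawn as triangles, lie nearer to 0.

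The order of the genes was read from the deposited FPKM, since levels of different genes are comparable only per length. The length is that of all annotated exons of a gene, such as 4259 bases for Uhrf1 and 16870 for Tet2. Counts per gene do not show which isoforms were present, so the order and the family shares below depend on this length. In Prr33-gRNA the order was Dnmt1 (24 ± 0.836 FPKM), Uhrf1 (19.9 ± 1.11), Tet3 (4.87 ± 0.114), Dnmt3a (3.95 ± 0.0494), Tet2 (3.39 ± 0.0710), Dnmt3b (0.373 ± 0.0140) and Tet1 (0.216 ± 0.0267), and no neighbours overlapped. In Ctrl-gRNA it was Dnmt1 (19.204 ± 0.173 FPKM), Uhrf1 (17.9 ± 1.52), Tet3 (5.80 ± 0.639), Tet2 (4.17 ± 0.189), Dnmt3a (4.05 ± 0.192), Tet1 (0.475 ± 0.0104) and Dnmt3b (0.424 ± 0.0617; SD, n = 3 throughout). In Ctrl-gRNA 3 pairs of neighbours overlapped between libraries and cannot be ordered: Dnmt1 and Uhrf1, Tet2 and Dnmt3a, and Tet1 and Dnmt3b. So Tet1, level with Dnmt3b in Ctrl-gRNA, was the lowest of the 7 in Prr33-gRNA, and Tet2 lay below Dnmt3a there.

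**Figure D3:**
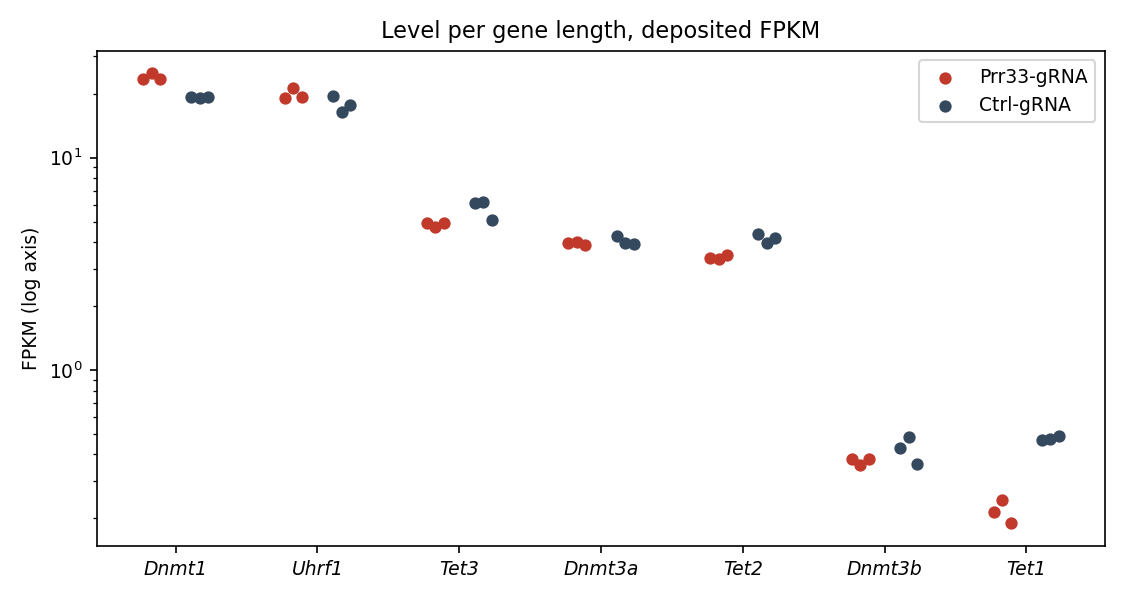
Deposited FPKM of the 7 genes on a log axis, 1 point a library, ordered by the mean over all libraries. Dnmt1 and Uhrf1 lie between 16.4 and 25 FPKM, Tet3, Dnmt3a and Tet2 between 3.34 and 6.20, and Dnmt3b and Tet1 below 0.50 FPKM in every library.

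Within the methyltransferase family, Dnmt1 made up 84.4%, 85.2% and 84.6% of the summed FPKM of Dnmt1, Dnmt3a and Dnmt3b in Prr33-gRNA libraries, against 80.4%, 81.1% and 81.8% in Ctrl-gRNA libraries. The share of Dnmt3a was 13.9% ± 0.313 in Prr33-gRNA and 17.1% ± 0.60 in Ctrl-gRNA (SD, n = 3 each). That of Dnmt3b was 1.32% ± 0.0874 in Prr33-gRNA and 1.79% ± 0.267 in Ctrl-gRNA. None of the 3 shares overlapped between groups (exact two-sided permutation p = 0.1 for each, the smallest that 3 against 3 libraries can give). They are parts of 1 sum and so not separate results, and Dnmt3a itself did not pass (log2 fold change -0.04). Tet1 made up 2.52%, 2.92% and 2.21% of the summed FPKM of the TET genes in Prr33-gRNA libraries, against 4.27%, 4.42% and 5.00% in Ctrl-gRNA libraries (exact two-sided permutation p = 0.1, again the smallest possible). The share of Tet3 was 57.5% ± 0.603 in Prr33-gRNA and 55.4% ± 3.14 in Ctrl-gRNA and that of Tet2 was 40.0% ± 0.557 in Prr33-gRNA and 40.0% ± 2.81 in Ctrl-gRNA, with overlapping libraries for both (exact two-sided permutation p = 0.4 and 1). The summed FPKM of the methyltransferase genes was 27.9, 29.3 and 27.8 in Prr33-gRNA, against 24.02, 23.4 and 23.6 in Ctrl-gRNA. That of the TET genes was 8.51, 8.32 and 8.58 in Prr33-gRNA, against 10.96, 10.6 and 9.73 in Ctrl-gRNA. The ratio of these sums, a measure added after the values were seen and given without a test, was 3.28, 3.52 and 3.24 in Prr33-gRNA and 2.19, 2.20 and 2.42 in Ctrl-gRNA.

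Genes of S phase, with which Dnmt1 and Uhrf1 are known to be expressed, were mostly higher in Prr33-gRNA. Of 36 listed, 24 rose, 3 fell and 9 did not pass, beside 25.5% higher and 26.6% lower over all tested genes. The median log2 fold change was 0.33, against -0.0023 over all tested genes. Dnmt1 (0.32) lay near that median and Uhrf1 (0.15) below it: 17 of the 36 genes had a lower log2 fold change than Dnmt1 and 10 a lower one than Uhrf1. Cdc6, which loads the replicative helicase, averaged 25.1 ± 3.38 CPM in Prr33-gRNA and 12.8 ± 1.36 CPM in Ctrl-gRNA (log2 fold change 0.97, SE 0.11; edgeR adjusted p = 2.50e-09). Rrm1, a ribonucleotide reductase subunit gene, rose by 0.42 on the log2 scale, whereas the helicase gene Mcm6 and the E2F factor gene E2f2 had log2 fold changes of -0.77 and -0.56. Of the 10 S-phase genes with an exact E2F-type match in a window, 5 rose, 2 fell and 3 did not pass, and of the 26 without a match or without a window 19 rose, 1 fell and 6 did not pass. Gins2, the other S-phase gene that fell (-0.45), was named after its value was seen.

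Among partners of the methyltransferases, 21 of 24 listed genes were tested, of which 10 rose, 3 fell and 8 did not pass. Over all tested genes 25.5% were higher and 26.6% lower. The median of the list on the log2 scale was 0.16. Hells, a chromatin remodeller required for full CpG methylation, averaged 56.9 ± 3.63 CPM in Prr33-gRNA and 32.2 ± 1.84 CPM in Ctrl-gRNA (log2 fold change 0.83, SE 0.07; edgeR adjusted p = 2.80e-12). Smchd1, a chromatin protein of the inactive X, and Cbx3, for a heterochromatin protein that has many processed copies in the genome, rose by 0.48 and 0.44. Zfp57, a zinc-finger protein that protects methylation at imprinted regions, averaged 22.6 ± 1.02 CPM in Prr33-gRNA and 38.2 ± 1.54 CPM in Ctrl-gRNA (log2 fold change -0.75, SE 0.08; edgeR adjusted p = 4.21e-10). Uhrf2, the relative of Uhrf1, and Pcna, the replication clamp that DNMT1 binds, rose by 0.32 and 0.28; both were named for these roles after their values were seen.

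Among the readers of methylated CpG and their corepressors, all 15 listed genes were tested, 6 rose, 2 fell and 7 did not pass, beside 25.5% higher and 26.6% lower over all tested genes, and log2 fold changes lay between -0.19 and 0.34 around a median of 0.07. Zbtb33, which encodes the methyl-CpG binding protein Kaiso, had 42.3 ± 1.55 CPM in Prr33-gRNA and 33.4 ± 1.43 CPM in Ctrl-gRNA (log2 fold change 0.34, SE 0.07; edgeR adjusted p = 1.07e-04). Its relative Zbtb38 and the NuRD subunit genes Gatad2a and Gatad2b rose by 0.28, 0.30 and 0.17. The counts in this list were unsteady. In edgeR, 0 fell when Prr33-gRNA replicate 3 or Ctrl-gRNA replicate 1 was left out, and 1 fell on leaving out Prr33-gRNA replicate 1 or 2 or Ctrl-gRNA replicate 2. With libraries scaled by size alone 10 rose and 0 fell, and the number that rose was 4 to 6 when single libraries were left out. Scaling by size alone also moved the share of called genes that were higher across the transcriptome to 61.8%, against 49.0% with TMM scaling.

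Of 22 genes listed for active demethylation and base excision repair, 20 were tested, 5 rose, 8 fell and 7 did not pass. Over all tested genes 25.5% were higher and 26.6% lower, so the number that rose is close to the background. The median of the list on the log2 scale was -0.05. The number that rose was unsteady: 4 in DESeq2 and without a filter, and 6 with libraries scaled by size alone. It was 3 to 4 when single libraries were left out, with 3 on leaving out Ctrl-gRNA replicate 2. The genes that fell included all 3 of the Gadd45 family and all 3 Apobec genes in the list. The GADD45 proteins are stress-induced regulators of growth arrest whose role in demethylation is disputed, and those genes are also known to follow differentiation. Gadd45a averaged 32.7 ± 2.09 CPM in Prr33-gRNA and 113 ± 5.34 CPM in Ctrl-gRNA (log2 fold change -1.79, SE 0.06; edgeR adjusted p = 5.63e-23), and Gadd45g and Gadd45b had log2 fold changes of -1.02 and -0.51. Apobec1, for an RNA-editing cytidine deaminase, averaged 2.45 ± 0.132 CPM in Prr33-gRNA and 9.53 ± 0.998 CPM in Ctrl-gRNA (log2 fold change -1.96, SE 0.18; edgeR adjusted p = 2.27e-11). Tdg, the glycosylase that excises the oxidised products of TET enzymes, had 14.9 CPM in Prr33-gRNA and 10.7 CPM in Ctrl-gRNA on average and rose by 0.47 (edgeR adjusted p = 0.00119), opposite in sign to the 3 TET genes; it was named for that role after its value was seen.

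TET enzymes use 2-oxoglutarate and are inhibited by succinate and fumarate. Of 21 genes listed as TET partners or for the supply and removal of these metabolites, 16 were tested, 5 rose, 3 fell and 8 did not pass. Over all tested genes 25.5% were higher and 26.6% lower. The median of the list on the log2 scale was 0.02. Idh3a, an isocitrate dehydrogenase subunit gene, averaged 270 ± 9.77 CPM in Prr33-gRNA and 197 ± 8.52 CPM in Ctrl-gRNA (log2 fold change 0.45, SE 0.05; edgeR adjusted p = 2.40e-10). Idh1, for the cytosolic enzyme, rose by 0.35, and Sdha, a succinate dehydrogenase subunit gene, had a log2 fold change of -0.23. Leaving out Prr33-gRNA replicate 2 gave 5 that fell, and 9 rose with libraries scaled by size alone.

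Methyltransferases draw their methyl groups from S-adenosylmethionine. Of 25 genes of the methyl donor cycle 20 were tested, 10 rose, 4 fell and 6 did not pass. Over all tested genes 25.5% were higher and 26.6% lower. The median of the list on the log2 scale was 0.14. Mtr, which remakes methionine from homocysteine, averaged 121 ± 3.23 CPM in Prr33-gRNA and 88.4 ± 2.62 CPM in Ctrl-gRNA (log2 fold change 0.46, SE 0.05; edgeR adjusted p = 2.18e-09). Mtap, of methionine salvage, rose by 0.50, Amd1, which decarboxylates S-adenosylmethionine for polyamine synthesis, by 0.38, and Ahcyl1, a relative of the S-adenosylhomocysteine hydrolase, by 0.35. The genes that fell, named after their values were seen, were Cth of transsulfuration, the folate carrier gene Slc19a1, and Shmt2 and Mthfd2 of mitochondrial folate metabolism, with log2 fold changes of -1.03, -0.52, -0.32 and -0.18 in edgeR. Over the list, log2 fold changes lay between -1.03 and 0.51. The liver-type synthetase gene Mat1a and Bhmt, Bhmt2 and Cbs had 0 counts in all 6 libraries.

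**Figure D4:**
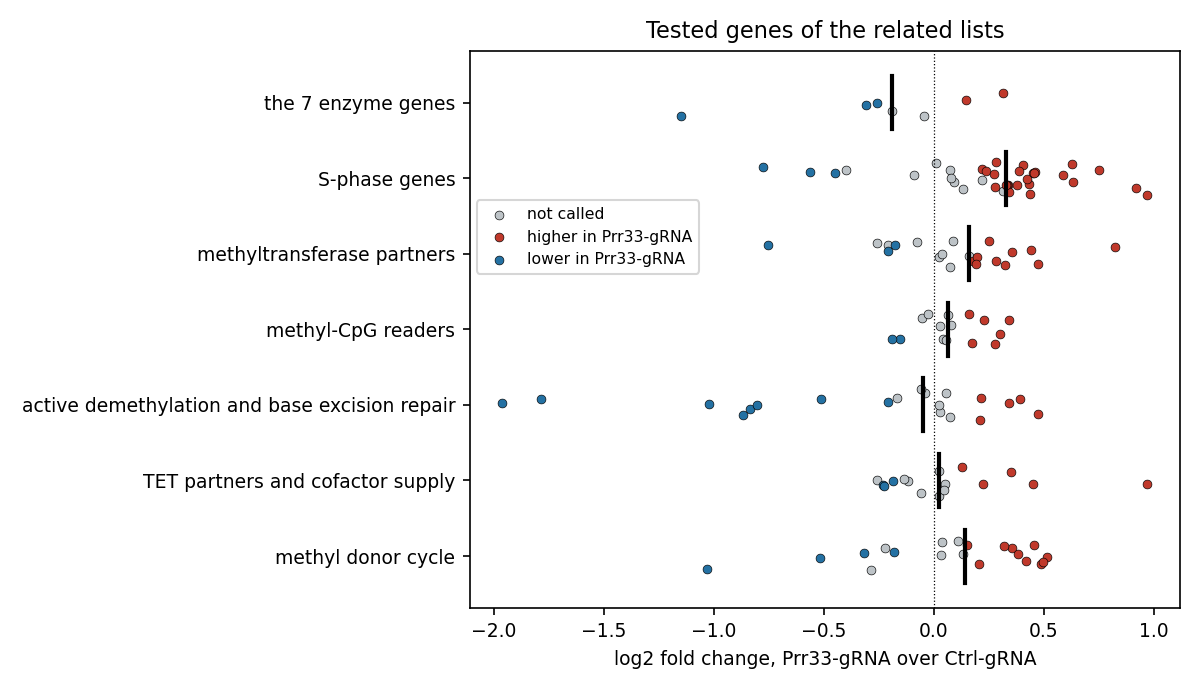
Log2 fold change of each tested gene of the 7 enzymes and of 6 related lists, Prr33-gRNA over Ctrl-gRNA, with vertical bars at the medians. S-phase genes lie mostly to the right (median 0.33), and the genes of active demethylation and repair have a tail to the left that ends with Apobec1 at -1.96.

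The genes whose log2 CPM followed each enzyme gene most closely over the 6 libraries were named by Pearson's r. The ranking covered 9937 protein-coding genes with a mean of 5 CPM or more (9938 for Dnmt3b), with clone-named genes such as Gm and Rik left out. With 2 groups, r is mostly the difference between groups for genes that changed, and it is given as a description. For Dnmt1 they were Ttf2 and the helicase gene Mcm2 (both r above 0.99), but 1703 genes had an r above 0.9. For Uhrf1 they were the centromere gene Cenpm and Mrgpre (both r of 0.98), with 63 genes above 0.9. Neither Cenpm nor Mrgpre passed the test (edgeR adjusted p = 0.148 and 0.0884), so that likeness lies partly in the scatter among libraries. For Tet1 they were Itm2a and Slc9a3r2, with 2111 genes above 0.9, for Tet2 Hivep2 and Tspan2, with 1796, and for Tet3 Sf3b4 and Plpp1, with 236. Dnmt3a was followed most closely by Mrpl21 and Aldh7a1 and Dnmt3b by Atp6v1c1 and Erp29 (r of 0.98 each), with 29 and 39 genes above 0.9, and for these 2 enzyme genes the likeness lies in the scatter among libraries.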

How the data were processed

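The deposited counts are whole numbers of reads for each gene with no scaling, beside gene coordinates and lengths. Per the submitters' processing notes the build was mm10 and the tools were featureCounts 1.5.0-p3, HISAT2 2.0.5 and CASAVA; no strand setting is known here, so reads of antisense genes cannot be told apart. FPKM values were deposited by the authors too; each column is counts over length and 1 constant, 1.03 to 1.04 of the library total in Prr33-gRNA and 0.973 to 0.978 in Ctrl-gRNA, so they are no separate check on scaling. For the 7 enzyme genes, coordinates and lengths matched GENCODE M21. The 333 rows with no Ensembl ID stayed in.

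Counts were tested with edgeR 4.0.16 in R 4.3.3 (filterByExpr, TMM, glmQLFit with robust fitting, glmQLFTest), with 2 groups, Benjamini-Hochberg adjustment over 14651 genes and a threshold of 0.05; the SE is the log2 fold change over the square root of F, and 95% intervals use the t distribution. CPM uses TMM-scaled totals, on which 3 counts are 0.150 to 0.182 CPM; intervals on counts cover counting error only. Tested on simulated data (14403 genes), the script found 48 of 48 genes changed 4-fold, 38 of 49 changed 2-fold, 33 of 50 changed 1.5-fold and 26 of 50 changed 1.25-fold, and made 14 false calls. The simulation changed at most 50 genes per fold, whereas 52.1% of tested genes were called in the data, so these rates need not carry over. No library was a duplicate of another of its group (chi-square of 2.76 to 5.32 per gene for their counts).

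The members, the gene lists and the tests were chosen with earlier results of these data known. Named genes were the 7 enzyme genes, Prr33, up to 4 genes per pathway list with the lowest adjusted p among those that passed and averaged at least 1 CPM, and 2 genes per enzyme by likeness; others are said to be chosen after their values were seen, or are given for their overlap or counts of 0. A gene that this rule names is not reported here. The alternatives were RLE factors, library size alone, DESeq2 1.42.0, limma-voom (limma 3.58.1), no filter, at least 1 CPM in 3 libraries, limma on log2(FPKM + 1) and on log2(FPKM + 0.1), a replicate block, chromosome 14 left out, and each library left out in turn. Protein sequences were not used here. Promoter windows, 250 bases before to 50 after a start, are from RefSeq (GRCm38.p6), and all 7 symbols matched. Figures were drawn with matplotlib 3.10.9.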

Additional observations from a re-analysis of the deposited data

How the results depend on the processing

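Dnmt1, Tet1, Tet2, Tet3 and Prr33 kept their direction and their call in all 16 alternative fits, with log2 fold changes of 0.29 to 0.40, -1.24 to -0.28, -0.34 to -0.22, -0.35 to -0.17 and -0.47 to -0.33. Dnmt3a and Dnmt3b passed in none. Uhrf1 lost its call in 7 of the 16, so the number of enzyme genes higher was 1 with DESeq2, with chromosome 14 left out and on either FPKM scale, and 1 to 2 when single libraries were left out; the adjusted p of Uhrf1 was 0.0645 with chromosome 14 left out and 0.0984 and 0.10 on FPKM. Deviations from the group means were uncorrelated between libraries of equal number (r of -0.01, -0.01 and 0.02 over genes), which gives no pairing. Under a replicate block the same 5 enzyme genes were called, Uhrf1 with an adjusted p of 0.0217, and the number of TET partner and cofactor genes that fell was 5, as with chromosome 14 left out. With libraries scaled by size alone, 10 readers rose and 0 fell, 1 methyltransferase partner fell and 9 TET partner and cofactor genes rose. The number of readers that fell was 1 without a filter, in DESeq2 and on either FPKM scale, and 0 to 2 when single libraries were left out; that of demethylation and repair genes that rose was 3 to 4, and that of TET partner and cofactor genes that fell 3 to 5. The cause was not tested. All other counts of the lists, the FPKM levels and the family shares moved by at most 1.5 times or by less than 1 SD. Across all genes 3315 to 5002 were higher and 3096 to 3978 lower. Depth limits what can be said of Dnmt3b, at 31 to 41 counts a library, and of Tet1, at 59 to 135.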

Other observations

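Germline genes known for silencing by promoter methylation were mostly not detected in either group. Of 30 listed, 13, among them Dazl, Stra8 and Tex101, had 0 counts in all 6 libraries, where a count of 0 allows up to 3 counts a library or 0.150 to 0.182 CPM. With those, 21 had at most 3 counts in any library. The filter left 3 to be tested, and Brdt and Xlr3a passed it only through their counts in Prr33-gRNA, so that both were higher there was set in part by the filter and no count over the list is drawn from it. Brdt, a bromodomain gene of the testis, had 49, 61 and 76 counts in Prr33-gRNA libraries, against 7, 3 and 2 in Ctrl-gRNA libraries (log2 fold change 3.79, SE 0.39; edgeR adjusted p = 4.57e-10). Xlr3a had 475, 504 and 570 counts in Prr33-gRNA libraries, against 4, 1 and 6 in Ctrl-gRNA libraries, and reads of its similar X-linked copies may count for it. Its relatives Xlr3b and Xlr4a had at most 3 and 5 counts in Prr33-gRNA libraries and 0 in Ctrl-gRNA libraries. A further relative, Xlr4b, had 0 counts in Prr33-gRNA libraries and at most 1 in Ctrl-gRNA libraries. Sycp1, of the synaptonemal complex, was the third gene tested and did not pass (log2 fold change 0.41, edgeR adjusted p = 0.0613). The methylation of these promoters was not measured.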
